A study of Rattus norvegicus with 210 samples.

Results

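The mediobasal hypothalamus (MBH) of rats exposed perinatally to ketoconazole (KTZ) was compared directly with that of rats exposed to diethylstilbestrol (DES) at postnatal day (PND) 22, with the 3 doses of each chemical pooled. The comparison held 30 of the 210 RNA-seq libraries, chosen by the tissue, dose and age in their labels: 15 of KTZ and 15 of DES. All came from female Sprague-Dawley rats aged 22 days whose dams had received the chemical in corn oil by oral gavage once a day, from gestational day 7 until birth and again from the day after birth to PND 22. The groups K3, K6 and K12 stood for 3, 6 and 12 mg/kg bw/day of KTZ, the groups D3, D6 and D12 for 3, 6 and 12 µg/kg bw/day of DES, and each had 5 libraries. Since the doses of the chemicals are in different units, no KTZ dose is taken here as equal to a DES dose. The 5 libraries of the corn oil group of the same tissue and age (C, vehicle) are given as a reference for levels and were not tested against the exposed groups. The share of all genes whose exposed libraries lay outside the range of these 5 was not counted. Statements that a gene lay above or below the vehicle range thus describe that gene only.

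The MBH holds the arcuate, ventromedial and tuberal nuclei, which regulate reproduction, growth, stress hormones and appetite. Kisspeptin neurons of the arcuate nucleus drive the pulses of gonadotropin-releasing hormone (GnRH) that set the timing of puberty, and they read sex steroids through estrogen and progesterone receptors. KTZ is an azole antifungal drug that inhibits cytochrome P450 enzymes, among them lanosterol demethylase (CYP51) of the cholesterol pathway and CYP17A1 of androgen synthesis. DES is a synthetic estrogen that binds and activates both nuclear estrogen receptors. The direct comparison asks whether an inhibitor of steroid synthesis and an estrogen left different transcriptomes in the prepubertal MBH.

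The 30 libraries held 16472714 to 24844687 counted reads each. These are counts of polyadenylated RNA from a dissected block of tissue, in which fewer cells of a type and less RNA per cell cannot be told apart. The labels give each rat a number but no litter, so the p-values measure the spread between these rats, and rats of 1 litter would share more than the tests assume.

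Arcuate markers, which define the MBH, had a mean level of 2.12 to 2.99 on the log2(CPM + 0.5) scale in the KTZ libraries, 2.06 to 3.07 in 13 DES libraries and 0.57 to 1.26 in the exposed POA libraries (CPM, counts scaled so that every library has an equal total). In the other 2 DES libraries, D3 replicate 3 and D12 replicate 4, they were at 1.57 and 1.26, and markers of other regions set these libraries apart too. The mean level of 6 markers of the mammillary nuclei, which lie at the caudal end of the block, was between 1.35 and 2.42 on this scale in 28 libraries and at -0.31 in D3 replicate 3 and -0.23 in D12 replicate 4. In the 30 libraries of the preoptic area (POA) of the same rats, these markers were between -0.46 and -0.16. The 5 markers of the preoptic area and basal forebrain stood at 3.73 in D3 replicate 3 and at 4.35 in D12 replicate 4, with 0.46 to 1.70 in the other 28 libraries and 2.58 to 4.11 in the POA. Pmch, which encodes melanin-concentrating hormone of the lateral hypothalamus, was at 629 CPM or above in the other 13 DES libraries and at 544 CPM or above in all KTZ libraries, and its lowest DES value was 1.34 CPM. Both libraries, labelled MBH, were within or above the POA range for the preoptic markers and within it for the mammillary ones. The results they touch are given with them and without them, over 30 and over 28 libraries.

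Other libraries differed in markers of regions next to the MBH and in the share of ribosomal protein transcripts. Ribosomal protein genes took 2.64% of the counts in D6 replicate 1, 3.18% in K3 replicate 4, 3.27% in K3 replicate 5 and 1.98% in D12 replicate 5, and between 1.02% and 1.71% in the other 26 libraries. The 12 markers of thalamic relay neurons, among them Prkcd and Ptpn3, had a mean level of 4.31 to 6.44 in the KTZ libraries, 3.26 to 6.26 in the DES libraries and 3.25 to 3.55 in the vehicle libraries. Without D3 replicate 3 and D12 replicate 4, the DES libraries had 3.81 to 6.26, also above the vehicle range. The 5 habenular markers reached 3.62 in K6 replicate 4 and 3.82 in K12 replicate 4 and were at most 2.35 elsewhere. The part of these differences in the levels of other genes was not tested.

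**Figure D1:**
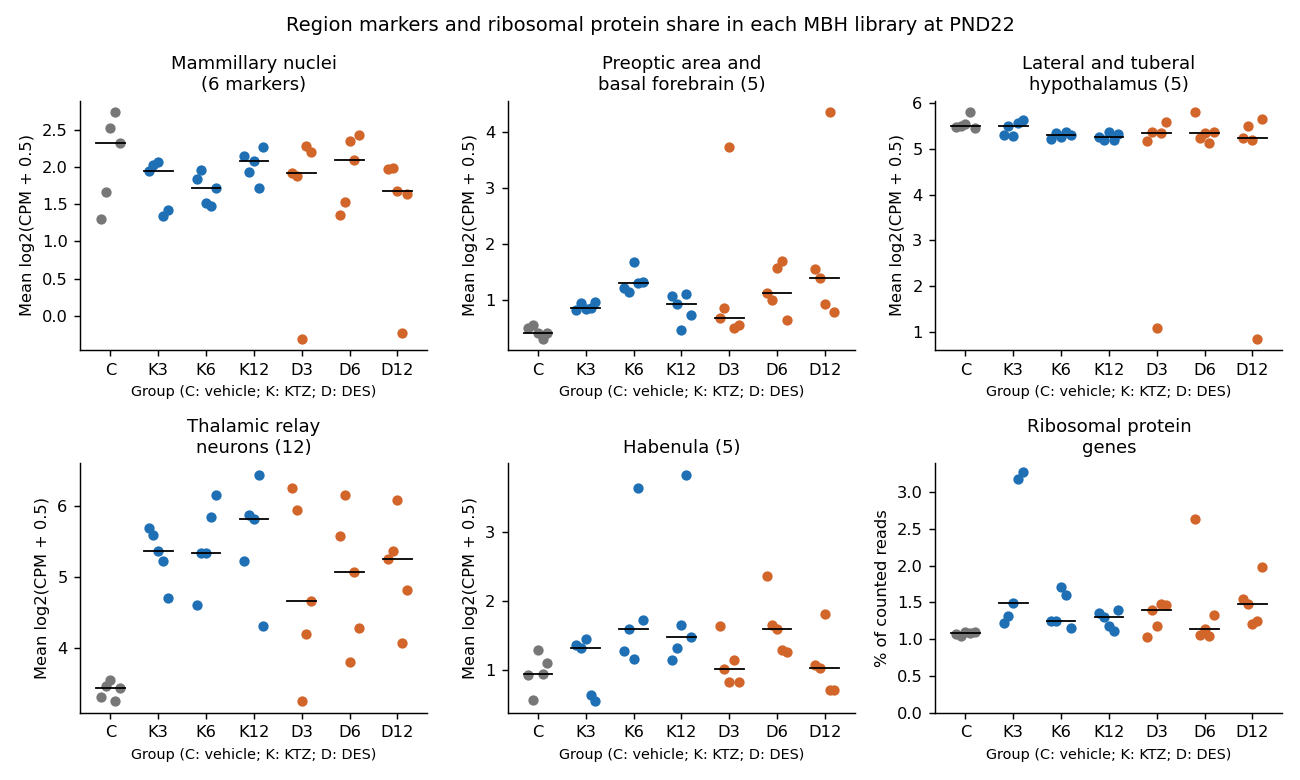
Mean log2(CPM + 0.5) of the markers of 5 brain regions and the share of counts on ribosomal protein genes (y axes) in each MBH library at PND22, by group (x axes: C, vehicle; K3 to K12, KTZ; D3 to D12, DES; points, libraries; bars, medians of 5). D3 replicate 3 (-0.31) and D12 replicate 4 (-0.23) lie apart from all others in the mammillary panel. The thalamic markers lie above the vehicle range of 3.25 to 3.55 in all 15 KTZ libraries. In the other 13 DES libraries they also lie above it, at 3.81 or more.

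The pooled KTZ and DES libraries did not form separate groups. On the 500 genes of highest variance, the first component of a principal component analysis (PCA) held 37.1% and the second 17.5% of the variance, and the chemicals overlapped on both. KTZ libraries lay from -10.2 to 27.9 on the first and from -8.2 to 7.9 on the second component, and DES libraries from -22.1 to 21.9 and from -19.9 to 12.0. K3 replicates 4 and 5 and D6 replicate 1, which were high in ribosomal protein reads, lay at the positive end of the first component, and D3 replicate 3 and D12 replicate 4 at the negative end of the second. The pseudo-F statistic sets the distances between the chemicals against those within them. It was 1.03 (upper-tail permutation test on 100000 resamples of the chemical labels, p = 0.366). It was 0.526 without the 2 DES libraries (permutation p = 0.829).

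Several genes with large weights on these components mark regions. On the first component, Pmch, Gabrd, which encodes the delta subunit of the GABA-A receptor, and Cck, which encodes cholecystokinin, had weights of 0.109, 0.0865 and 0.0835. Most of the largest weights on this component were negative, among them those of Slc7a14 (-0.0848), Pgap1 (-0.0848) and Arfgef3 (-0.0834), which are in no region list here. On the second, Pmch (0.154), Ptpn3 (0.141) and Prkcd (0.123) were opposite in sign to Ttr (-0.147), the transthyretin gene that is abundant in the choroid plexus. These genes were chosen after their values were seen.

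**Figure D2:**
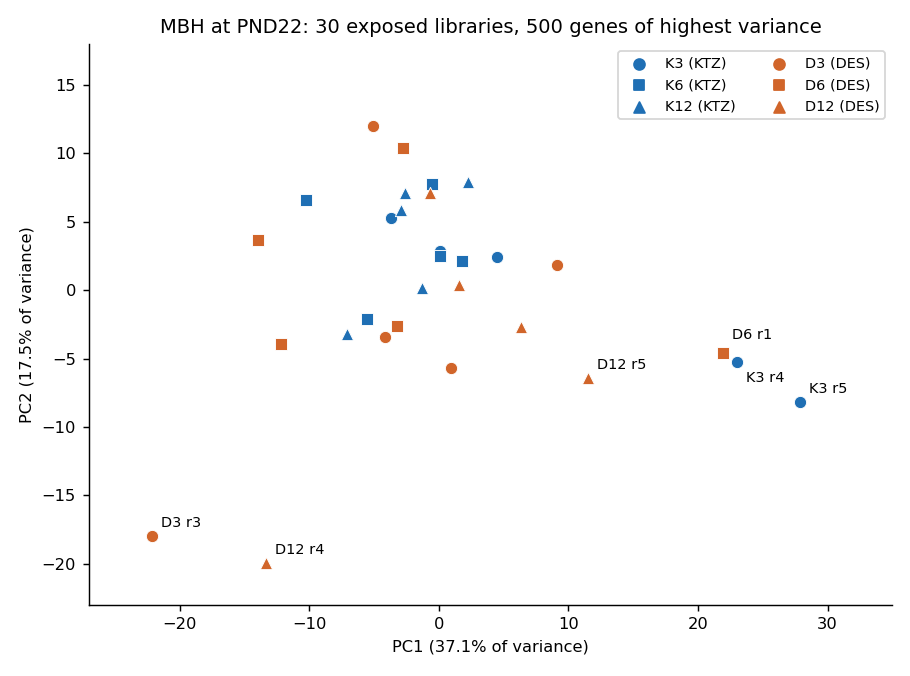
First and second principal component scores of the 30 exposed MBH libraries at PND22 on the 500 genes of highest variance after variance stabilizing transformation (blue, KTZ; orange, DES; symbol, dose; r, replicate). The chemicals overlap on both axes, and the named libraries are those set apart by region markers or by ribosomal protein reads.

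Across all genes, no transcript passed the test between the chemicals. Of 14697 genes tested, 0 (0%) had an adjusted p-value under 0.05 by edgeR's quasi-likelihood test and the Benjamini-Hochberg method, and the smallest adjusted p-value was 0.754. An unadjusted p-value under 0.05 was reached by 518 genes (3.52%), 147 of them higher and 371 lower in KTZ than in DES. Over 28 libraries, 0 of 14713 genes passed (0%) and 367 (2.49%) had an unadjusted p-value under 0.05, 73 higher and 294 lower. DESeq2 on the 30 libraries called 1 gene, Ttr, and 0 on the 28 libraries.

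The fold changes were small, and their intervals limit how large a difference could have been missed. The median absolute log2 fold change of KTZ over DES was 0.07 with a median standard error of 0.11. The 95% interval of the log2 fold change, not adjusted for the number of genes, lay within -1 to 1 (a 2-fold change either way) for 14482 genes (98.5%) and within -0.5 to 0.5 for 11836 genes (80.5%). Over 28 libraries, these were 14556 (98.9%) and 12177 (82.8%). A 2-fold difference in either direction thus lay outside the interval for most genes, and for the genes not counted within -0.5 to 0.5 the interval reached past a 1.41-fold difference.

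**Figure D3:**
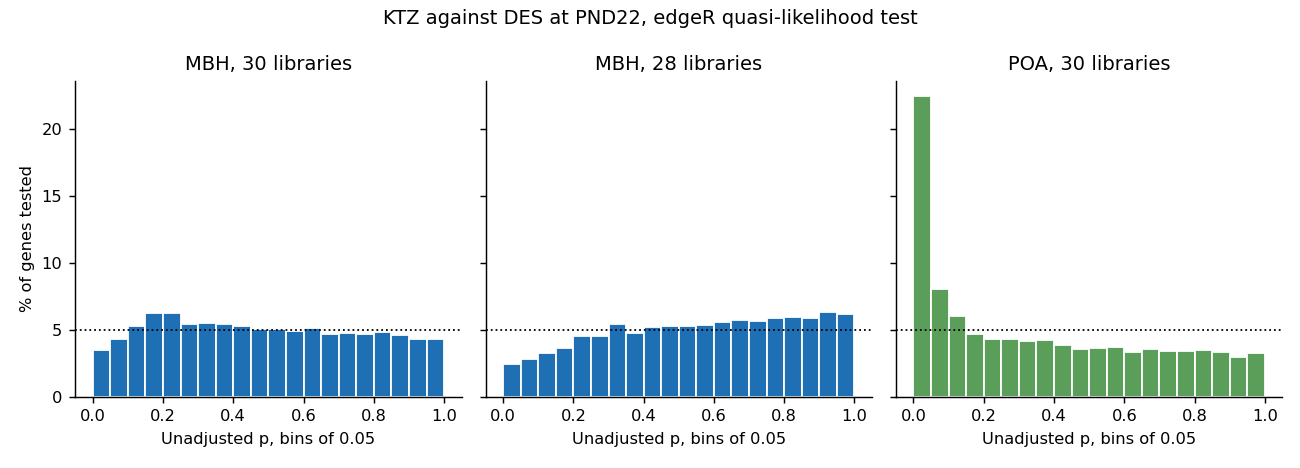
Share of genes tested (y axis, %) by unadjusted p-value in bins of 0.05 (x axis) for KTZ against DES in the MBH with 30 and with 28 libraries and in the POA of the same 30 rats. The dotted line is the 5% that each bin would hold if p-values were evenly spread; the first bin holds 3.52%, 2.49% and 22.5%.

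The gene with the lowest p-value among those with a common name was Dtx1 (ENSRNOG00000050848), which encodes an E3 ubiquitin ligase of the Notch pathway. It was at 18.3 CPM in the lowest, 27.3 in the median and 30.5 in the highest KTZ library, and at 25.6, 30.7 and 39.4 CPM in the DES libraries. The ranges overlapped, and the log2 fold change was -0.27 (SE 0.06, unadjusted p = 0.00010, adjusted p = 0.754 in edgeR's quasi-likelihood test). Without the 2 DES libraries it was -0.26. LOC100909840 had a log2 fold change of -0.52 (SE 0.12), Cbarp, which encodes a regulator of voltage-gated calcium channels, of -0.22 (SE 0.06), Jph4, a junctophilin of neurons, of -0.25 (SE 0.07), and Tceal6 of -0.18 (SE 0.05). All of these were chosen after their values were seen, and none passed the test over 30 or 28 libraries.

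Some fold changes with low p-values were far smaller without the 2 DES libraries that had preoptic markers. Lhx8, a transcription factor of basal forebrain neurons, was at most at 1.29 CPM in KTZ and reached 32.3 CPM in DES, with a log2 fold change of -2.79 over 30 libraries, while its highest value in the other 13 DES libraries was 1.82 CPM. Over 28 libraries it no longer passed the filter on low counts. Ngfr, which encodes a neurotrophin receptor of basal forebrain cholinergic neurons, went from -1.59 (SE 0.43) to -0.40 (SE 0.18).

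Cholesterol synthesis, the pathway of the KTZ target CYP51, gave narrow intervals around 0. Of its 24 listed genes, 23 were tested and 0 were called. Their median log2 fold change was 0.05 (0.01 over 28 libraries), against 0.00 over all genes tested, with values from -0.07 for Srebf2 to 0.17 for Stard4. All 23 intervals lay within -0.5 to 0.5.

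Cyp51 was at 292 CPM in the lowest, 322 in the median and 378 in the highest KTZ library, and at 230, 324 and 363 CPM in the DES libraries. The vehicle libraries had 220 to 279 CPM, and all 15 KTZ and 14 DES libraries were above them. The log2 fold change between the chemicals was 0.05 (SE 0.06, 95% interval -0.08 to 0.18). Hmgcs1, which encodes a synthase of the early part of the pathway, was at 392, 593 and 652 CPM in KTZ and at 439, 588 and 662 CPM in DES, with a log2 fold change of 0.02 (SE 0.06, interval -0.10 to 0.14). The vehicle libraries had 425 to 592 CPM of it, a range that overlapped both chemicals.

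No gene that makes or converts steroids passed the test. Of 26 listed genes, 17 were tested, 0 were called, and the median log2 fold change was 0.05 (0.02 over 28 libraries). Cyp17a1, the other classical target of KTZ, was at or near 0 in every exposed library, with 0.291 CPM as the highest value, and did not pass the filter on low counts. Cyp19a1, which encodes aromatase, was at 0.538, 0.966 and 2.37 CPM in KTZ and at 0.688, 1.03 and 5.10 CPM in DES. Its highest DES value was in D12 replicate 4, and its log2 fold change moved from -0.37 (SE 0.28) to 0.04 (SE 0.22) without the 2 libraries.

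Cyp46a1, the cholesterol 24-hydroxylase of neurons, was the most abundant of this group with Hsd17b12. It was above all vehicle libraries (76.4 to 89.6 CPM) in all 30 exposed ones, with medians of 169 CPM in KTZ and 156 CPM in DES, and its log2 fold change between the chemicals was 0.10 (SE 0.15, interval -0.21 to 0.42). Hsd17b12 had 0.09 (SE 0.07). Akr1c14, a 3-alpha-hydroxysteroid dehydrogenase that acts on neurosteroids, was at 3.02, 4.99 and 6.15 CPM in KTZ and at 1.58, 4.21 and 5.30 CPM in DES, a log2 fold change of 0.37 (SE 0.16, adjusted p = 0.946 in edgeR's quasi-likelihood test) that was 0.24 over 28 libraries, and was named after its value was seen.

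**Figure D4:**
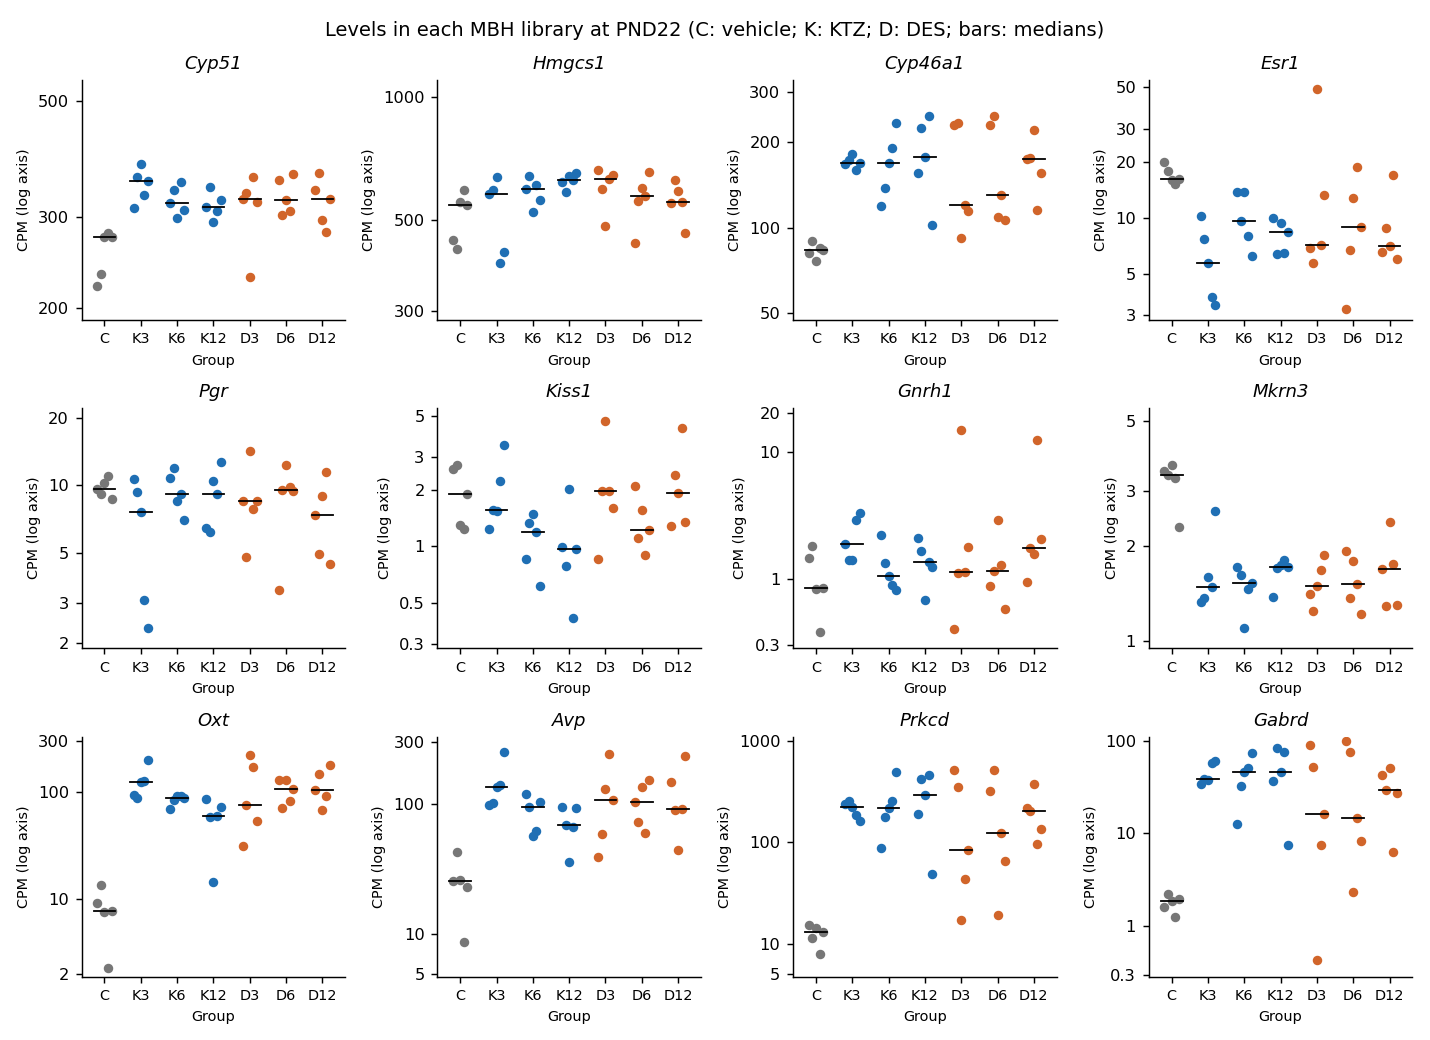
Levels of 12 genes (y axes, CPM on a log axis) in each MBH library at PND22 by group (x axes: C, vehicle; K3 to K12, KTZ; D3 to D12, DES; points, libraries; bars, medians of 5). KTZ and DES libraries overlap for every gene, and both chemicals lie above all vehicle libraries for Cyp46a1, Oxt and Prkcd.

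Steroid receptors, their coregulators and related orphan receptors gave 0 calls among 21 tested genes, with a median log2 fold change of -0.01 (0.01 over 28 libraries). Esr1, the gene of estrogen receptor alpha, to which DES binds, was at 3.40, 7.98 and 13.8 CPM in KTZ and at 3.24, 7.15 and 48.9 CPM in DES, with 15.3 to 20.0 CPM in the vehicle libraries. All 15 KTZ and 12 DES libraries were below the vehicle range. The highest DES value was in D3 replicate 3, and the log2 fold change was -0.50 (SE 0.28, interval -1.06 to 0.06) over 30 and -0.07 (SE 0.20, interval -0.48 to 0.35) over 28 libraries.

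Esr2, which encodes estrogen receptor beta, was near 1 CPM under both chemicals, with a log2 fold change of -0.48 (SE 0.24, interval -0.97 to 0.01) and of -0.34 (SE 0.24) over 28 libraries. Pgr, the progesterone receptor gene and a classical estrogen-induced transcript, was at 2.33, 9.18 and 12.7 CPM in KTZ and at 3.45, 8.52 and 14.2 CPM in DES. Its log2 fold change of 0.01 (SE 0.19) had an interval of -0.37 to 0.39, so that a 2-fold difference in either direction lay outside it. The largest fold change of the list was that of Esrrb, an orphan receptor related to the estrogen receptors, at 0.643 to 2.69 CPM in KTZ and 0.481 to 1.68 CPM in DES, with 0.51 (SE 0.18, adjusted p = 0.946 in edgeR's quasi-likelihood test) and 0.48 over 28 libraries, and it was named after its value was seen. Pgrmc1 (0.05, SE 0.09) and Fkbp4 (0.04, SE 0.05), the most abundant members, had intervals within -0.5 to 0.5.

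Genes of the response to foreign compounds did not pass the test either (0 of 14 tested, median 0.06, and 0.03 over 28 libraries). Por, which encodes the electron donor of microsomal P450 enzymes, had the lowest p-value of this list. It was at 99.2, 139 and 152 CPM in KTZ and at 125, 153 and 162 CPM in DES, and its log2 fold change was -0.13 (SE 0.04, unadjusted p = 0.0041, adjusted p = 0.946 in edgeR's quasi-likelihood test). Gstp1, a glutathione transferase, was at 0.08 (SE 0.14).

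Genes of the network that controls GnRH pulses did not differ beyond the spread between libraries. Of 34 listed genes, 31 were tested, 0 were called, and the median log2 fold change was -0.04 (0.00 over 28 libraries). Kiss1, the kisspeptin gene, was at 0.414, 1.23 and 3.50 CPM in KTZ and at 0.855, 1.61 and 4.70 CPM in DES, with 1.25 to 2.74 CPM in the vehicle libraries. Its log2 fold change was -0.43 (SE 0.27, interval -0.98 to 0.12), and -0.14 (SE 0.25) over 28 libraries. Tac3, which encodes neurokinin B of the same neurons, had -0.04 (SE 0.18). Pomc, which encodes the precursor of melanocortin peptides in neighbouring arcuate neurons, was at 15.8, 32.1 and 55.6 CPM in KTZ and at 2.08, 31.9 and 55.4 CPM in DES, a log2 fold change of -0.10 (SE 0.29) and of -0.30 (SE 0.18) over 28 libraries.

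Gnrh1 itself is expressed mainly by neurons of the preoptic area. Its largest values were in the 2 libraries with preoptic markers. D3 replicate 3 had 14.8 CPM and D12 replicate 4 had 12.3 CPM, the other 13 DES libraries had 0.402 to 2.91 CPM and the KTZ libraries 0.680 to 3.29 CPM. The log2 fold change was -0.80 (SE 0.43) over 30 libraries and 0.30 (SE 0.26, interval -0.23 to 0.83) over 28. Mkrn3, a puberty-linked inhibitor of GnRH release, was at 1.1, 1.6 and 2.58 CPM in KTZ and at 1.22, 1.52 and 2.38 CPM in DES, with a log2 fold change of 0.04 (SE 0.12, interval -0.20 to 0.28). In both chemicals, 14 of 15 libraries were below the vehicle range of 2.31 to 3.62 CPM. Ezh1, a Polycomb methyltransferase, had 0.02 (SE 0.07), and Nsmf, a factor of GnRH neuron migration and of synaptic signaling, had 0.34 (SE 0.25).

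The magnocellular peptide genes Oxt and Avp had medians above the vehicle range under both chemicals, a difference that was not tested. Oxt, the oxytocin gene, was at 14.6, 87.4 and 201 CPM in KTZ and at 31.8, 106 and 221 CPM in DES, and all 30 values were above the vehicle range of 2.28 to 13.6 CPM. Avp, the vasopressin gene, was at 35.9, 95.8 and 251 CPM in KTZ and at 39.1, 105 and 243 CPM in DES, with 8.78 to 42.6 CPM in the vehicle libraries. Between the chemicals, the log2 fold change was -0.25 for Oxt (SE 0.25, interval -0.77 to 0.27) and -0.12 for Avp (SE 0.26, interval -0.65 to 0.41). Trh, the gene of thyrotropin-releasing hormone, had -0.07 (SE 0.14). For all 18 members tested, 0 were called and the median was -0.07 (-0.05 over 28 libraries).

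In this list, 5 members were higher and 13 lower in KTZ, and 4 had an unadjusted p-value under 0.05, against 3.52% over all genes, with an adjusted p of 0.946 for each in edgeR's quasi-likelihood test. Of these, Crhr2, which encodes a receptor of corticotropin-releasing hormone and urocortins, was lower in KTZ (log2 fold change -0.33, SE 0.14, and -0.18 over 28 libraries), and 3 genes of dopamine neurons were higher. Ddc, another listed gene of dopamine neurons, did not have an unadjusted p-value under 0.05 in edgeR's quasi-likelihood test. Slc6a3, which encodes the dopamine transporter, was at 28.8, 63.3 and 160 CPM in KTZ and at 0.364, 17.4 and 113 CPM in DES, with 4.05 to 19.6 CPM in the vehicle libraries. All 15 KTZ libraries and 7 of the 15 DES libraries were above the vehicle range, and the log2 fold change was 1.01 (SE 0.49, interval 0.01 to 2.00). Th, which encodes tyrosine hydroxylase, the rate-limiting enzyme of dopamine synthesis, had 0.52 (SE 0.24), and Slc18a2, the vesicular monoamine transporter gene, had 0.42 (SE 0.20). Over 28 libraries, the values were 0.80, 0.37 and 0.29, and 0 members of this list had an unadjusted p-value under 0.05 in edgeR's quasi-likelihood test. These genes were chosen after their values were seen.

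Npw, which encodes neuropeptide W, was under 0.3 CPM in all exposed libraries, from 0 to 0.253 CPM in KTZ and from 0 to 0.212 CPM in DES, with 2.08 to 4.19 CPM in the vehicle libraries. It passed no filter on low counts, and a difference between the chemicals was not detectable at this depth. Among the other feeding peptides and receptors, 0 of 19 tested genes were called (median -0.03, and -0.06 over 28 libraries). Pmch had a log2 fold change of 0.20 (SE 0.46) that became -0.01 (SE 0.20) without the 2 DES libraries, and Ntrk2, the receptor of brain-derived neurotrophic factor, had -0.03 (SE 0.07).

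Genes of GABA and glutamate transmission, the main inhibitory and excitatory transmitters, were tested at 22 and 31 members with 0 calls in either list and medians of -0.05 and -0.05 (-0.01 and -0.02 over 28 libraries). Gabbr1, a subunit of the GABA-B receptor, had a log2 fold change of 0.01 (SE 0.04, interval -0.08 to 0.09), Slc1a3, a glutamate transporter gene of astrocytes, of -0.01 (SE 0.07), and Slc17a6, a vesicular glutamate transporter gene, of 0.18 (SE 0.15). Slc32a1, the vesicular GABA transporter gene, was at 45.9, 85.2 and 96.9 CPM in KTZ and at 65.7, 93.1 and 193 CPM in DES, a log2 fold change of -0.36 (SE 0.12) that was -0.20 over 28 libraries, and was named after its value was seen.

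Gabrd belongs to this list and, with the thalamic markers Prkcd and Ptpn3, differed widely from vehicle and between libraries. Gabrd was at 7.56, 45.2 and 82.8 CPM in KTZ, at 0.427, 27.3 and 98.8 CPM in DES and at 1.25 to 2.20 CPM in the vehicle libraries. Prkcd, a protein kinase C gene of thalamic relay neurons, was at 48.3, 223 and 489 CPM in KTZ and at 17.1, 136 and 520 CPM in DES, with 7.96 to 15.4 CPM in the vehicle libraries. Between the chemicals, the log2 fold changes were 0.42 (SE 0.46) for Gabrd, 0.26 (SE 0.40) for Prkcd and 0.33 (SE 0.38) for Ptpn3, and they were 0.23, 0.10 and 0.14 over 28 libraries. The intervals over 30 libraries all reached above 1, so that a 2-fold difference lay inside them. The thalamic markers as a list had a median of 0.26 over 30 and 0.11 over 28 libraries, with 11 of 12 higher in KTZ and 0 called, and whether thalamic tissue had a part in these levels was not tested.

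**Figure D5:**
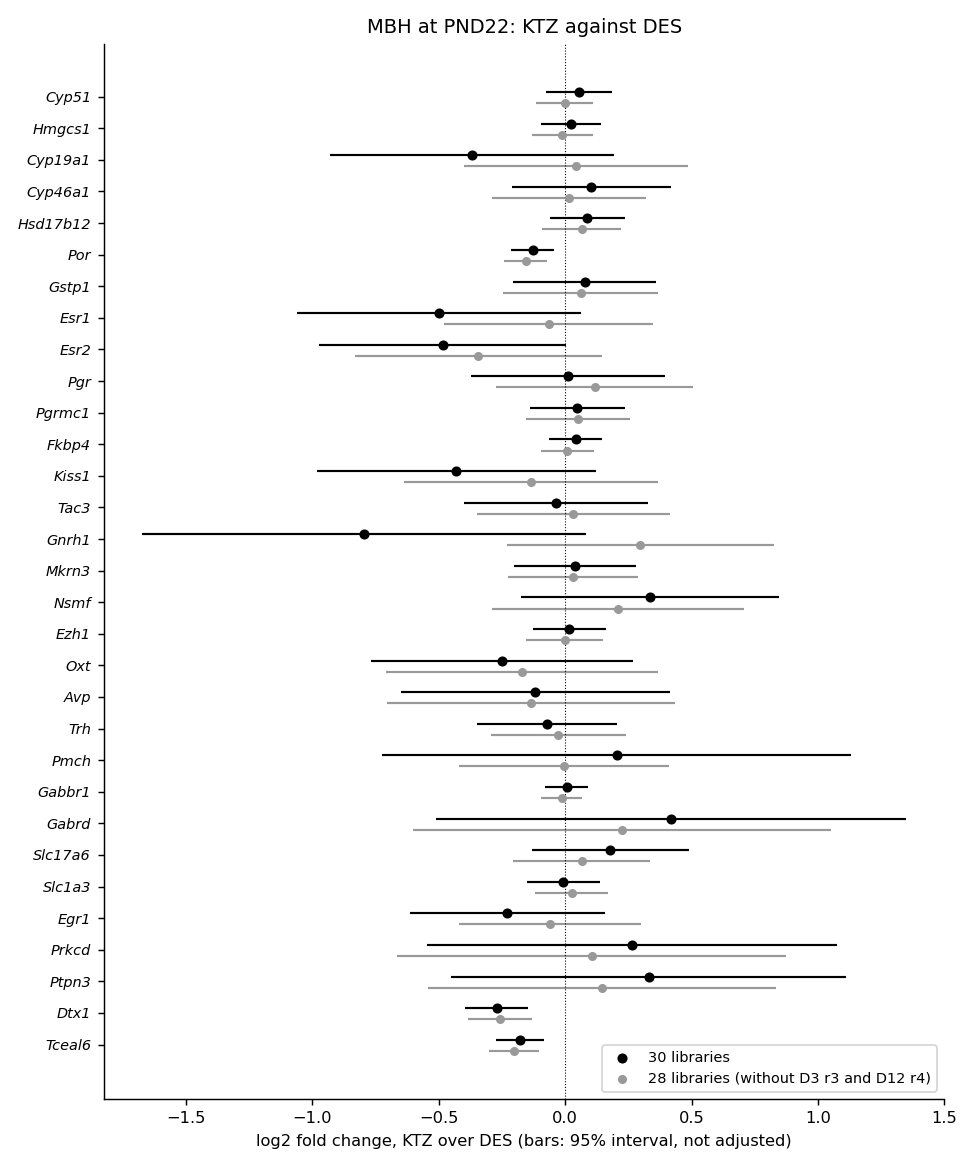
Log2 fold change of KTZ over DES (x axis) with its unadjusted 95% interval for 31 genes (y axis) in the MBH at PND22, over 30 libraries (black) and 28 libraries (grey). Cyp19a1, Esr1, Kiss1 and Gnrh1 move towards or past 0 without D3 replicate 3 and D12 replicate 4, and Por, Dtx1 and Tceal6 keep intervals below 0 in both fits, although no gene passed the adjustment.

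The remaining pathway lists had medians between -0.09 and 0.05. Immediate early genes had -0.09 (16 tested), heat shock genes 0.05 (14), PPAR and fatty acid oxidation 0.04 (21), IGF and insulin signalling -0.02 (21) and thyroid hormone action 0.02 (12), with 0 called in each. Egr1, an activity-induced transcription factor, was at 16.1, 48.4 and 61.1 CPM in KTZ and at 26.6, 47.0 and 95.9 CPM in DES, a log2 fold change of -0.23 (SE 0.19, and -0.06 over 28 libraries). The constitutive chaperones Hspa8 (0.04, SE 0.06) and Hsp90ab1 (0.04, SE 0.05) had intervals within -0.5 to 0.5. The genes that the study had tabulated for GnRH control had -0.02 (68 tested), and as these were chosen from the same libraries they are no independent evidence. Over all 15 pathway lists, 307 different genes were tested, 0 were called, 13 (4.23%) had an unadjusted p-value under 0.05, and the interval lay within -1 to 1 for 295 (96.1%). List medians ranged from -0.09 to 0.06 over 30 and from -0.06 to 0.03 over 28 libraries.

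Markers of cell types and regions gave 0 calls among 127 genes in 24 lists. An unadjusted p-value under 0.05 was reached by 12 of them (9.45%), and the interval lay within -1 to 1 for 110 (86.6%) and within -0.5 to 0.5 for 60 (47.2%). Those of neurons had a median of 0.03, of astrocytes -0.02, of microglia -0.01, of endothelium 0.02, of myelinating oligodendrocytes 0.13 and of oligodendrocyte precursors -0.13. Mbp, a main protein of myelin, was at 0.25 (SE 0.20), and Aqp4, the water channel of astrocytes, at -0.02 (SE 0.09). Snap25, a protein of the synaptic release machinery, was at 0.12 (SE 0.07), Pdgfra, the receptor that marks oligodendrocyte precursors, at 0.01 (SE 0.10), and Csf1r, the receptor that microglia need, at -0.10 (SE 0.05). Of the 7 microglial markers, 4 were lower and 3 higher in KTZ. Csf1r, Cx3cr1 (-0.17) and P2ry12 (-0.19) had an unadjusted p-value under 0.05 in edgeR's quasi-likelihood test, and over 28 libraries 2 of the 7 did. Cx3cr1 and P2ry12 were named after their values were seen. Medians further from 0 were those of the preoptic area and basal forebrain (-1.47, with 0.09 over 28 libraries), the choroid plexus (-0.43, with 0.02), the cortex and hippocampus (-0.34, with -0.10), erythroid cells (0.23, with 0.17) and the habenula (0.70, with 0.68). The habenular median rested on 3 tested markers of 5. Over 20 alternative fits it ran from -0.52 (within rat numbers 40 to 79) to 1.22 (without the D6 group). The habenular markers were highest in K6 replicate 4 and K12 replicate 4, and Gpr151, the defining habenular receptor among them, was at most at 21.2 CPM in KTZ and 13.4 CPM in DES with medians of 0.391 and 0.284 CPM.

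Pooling the doses of a chemical raises the question whether they were alike. Among the 3 KTZ doses, edgeR's quasi-likelihood test called 0 of 14956 genes, while 2575 (17.2%) had an unadjusted p-value under 0.05 and DESeq2 called 161. Among the 3 DES doses, 0 of 14996 genes were called, 257 (1.71%) had an unadjusted p-value under 0.05 and DESeq2 called 2, LOC680121 and AABR07035218.1. Oxt, for example, had medians of 124, 87.4 and 60.0 CPM in K3, K6 and K12 (unadjusted p = 0.0087) and of 75.7, 107 and 106 CPM in D3, D6 and D12 (unadjusted p = 0.90). Between groups of the same dose rank, which are not equal doses, edgeR called 0 genes for K3 over D3, K6 over D6 and K12 over D12, and 12%, 2.87% and 8.41% of genes had an unadjusted p-value under 0.05, with 5 libraries a group. The median absolute log2 fold change was 0.24, 0.10 and 0.12. The K3 group holds K3 replicates 4 and 5, with ribosomal protein shares of 3.18% and 3.27%, and their part in these differences was not tested.

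The same comparison in the POA of the same 30 rats gave calls. There, edgeR's quasi-likelihood test called 1306 of 14422 genes (9.06%), 626 higher (4.34%) and 680 lower (4.72%) in KTZ, and 3242 (22.5%) had an unadjusted p-value under 0.05. The count depended on the dose groups in the fit, with 390 calls without K6, 406 without D3, 407 without D6, 564 without K12 and 2142 without D12. On the 500 genes of highest variance, the pseudo-F in the POA was 1.44 (permutation p = 0.0958). Over all genes tested, the median absolute log2 fold change was 0.07 in either tissue, with a median standard error of 0.06 in the POA and 0.11 in the MBH. For the 1301 genes called in the POA and tested in both tissues, the median absolute value was 0.16 in the POA and 0.09 in the MBH. These genes were selected by their POA values, which favours larger values there. Whether the difference between the chemicals itself differed between the tissues was tested over 60 libraries with the rat number of the labels as a block. The correlations of the MBH and POA libraries that share a rat number did not show this pairing (median -0.003). By edgeR's quasi-likelihood test, the difference between the chemicals differed between the tissues for 0 of 15105 genes (0%), with 470 (3.11%) at an unadjusted p-value under 0.05. Without the 2 rats of D3 replicate 3 and D12 replicate 4, it differed for 0.

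Genes called in the POA mostly had fold changes of the same sign in the MBH. Of the 1306, 1301 were tested in both tissues, and 1108 of these (85.2%) had the same sign in the MBH, against 8896 of all 14248 genes tested in both (62.4%). The POA and MBH libraries are of the same rats, and genes are not independent of each other, so no test was made of these shares. For the genes higher in the KTZ POA, the median log2 fold change was 0.14 there and 0.09 in the MBH (0.07 over 28 libraries). For those lower in the KTZ POA, it was -0.19 and -0.08 (-0.08 over 28 libraries).

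Single genes show this relation. Txn1, which encodes thioredoxin, was at 59.9, 67.2 and 70.0 CPM in the KTZ POA and at 42.2, 47.6 and 61.4 CPM in the DES POA, a log2 fold change of 0.37 (SE 0.04, adjusted p = 2.2e-06, edgeR's quasi-likelihood test). The D3 and D6 libraries and D12 replicate 1 were at 42.2 to 52.7 CPM, while the other 4 D12 libraries, at 57.5 to 61.4 CPM, overlapped the KTZ range. In the MBH, Txn1 had 0.43 with a standard error of 0.22 (adjusted p = 0.946). Nudc, a nuclear migration gene, had -0.63 (SE 0.08) in the POA and -0.30 (SE 0.10) in the MBH. Lzts2, Jph4, Cbarp, Tceal6 and Dtx1, among the genes of lowest p-value in the MBH, were called in the POA with log2 fold changes of -0.31, -0.29, -0.28, -0.20 and -0.22. Nkx2-2, a transcription factor of the ventral neural tube and of oligodendrocytes, was less alike, with -0.76 (SE 0.11) in the POA and -0.10 (SE 0.12) in the MBH, where it was at 1.72, 2.79 and 3.82 CPM in KTZ and at 1.76, 2.78 and 4.47 CPM in DES. All of these genes were chosen after their values were seen.

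Ribosomal protein genes moved with the chemical in the POA. Of 75 tested in both tissues, 22 were called there, 21 of them higher in KTZ, with a median log2 fold change of 0.09, and in the MBH 0 were called at a median of 0.24 (0.18 over 28 libraries). The ribosomal protein share of the counts, taken over a wider set of gene symbols, was 0.973% to 1.08% in the KTZ POA and 0.847% to 1.05% in the DES POA. Its part in the other POA calls was not tested.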

How the data were processed

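Polyadenylated RNA of the MBH and POA was sequenced as stranded libraries. Per the methods, the authors used STAR for alignment to Rnor_6.0 and featureCounts for counting on Ensembl genes. The submitters' notes name bcl2fastq 2.20. The deposited values are raw counts per gene, whole numbers without normalization and without pooling of libraries. The strand setting and the treatment of multi-mapping reads are not given in the sources used here, so genes with near-identical copies, overlapping genes and antisense genes are uncertain. Gene names were taken from the deposited tables, and where several IDs shared a symbol the one with most counts was used. Coordinates were not used. Some genes are not reported here.

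The test across genes was the quasi-likelihood test of edgeR 4.0.16 (R 4.3.3), two-sided, with TMM scaling, filterByExpr with a minimum count of 10 and Benjamini-Hochberg adjustment over all genes tested. Genes with an adjusted p-value under 0.05 were called, whatever their fold change. Standard errors were computed from the log2 fold change and the square root of F, and 95% intervals are not adjusted. The fits were tested on simulated data. DESeq2 1.42.0 was the alternative and gave the variance stabilizing transformation. CPM values are before TMM scaling, and marker scores are the mean of log2(CPM + 0.5). The ribosomal protein share sums all symbols that start with Rpl or Rps and a digit, a pattern that also matches kinase genes named Rps6k. The ribosomal protein genes compared between the tissues follow a narrower pattern without these.

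Rats were grouped by their labels, 5 libraries per dose. The rule named up to 12 called genes in each direction, of which there were 0, then 13 genes taken as targets of the chemicals or named by the study, members taken from the 2 most abundant of each discussed list, and genes said to be chosen after their values were seen. The comparison, its members and all lists were chosen with earlier results of these data known. Same-numbered KTZ and DES libraries were checked for pairing by the correlation of their deviations from the group means: 4 of 15 pairs exceeded 0.1 (median 0.05), so the numbers were not taken to pair them. For the test of tissue and chemical, the rat number of the labels gave the block. The same check was made on the MBH and POA libraries that share a rat number. Of these 30 pairs, 4 exceeded 0.1 (median -0.003, from -0.24 to 0.24). The correlations thus did not show this pairing either, and the block rests on the labels alone.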

Additional observations from a re-analysis of the deposited data

Results flagged for a closer look

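In groups of 5 libraries, 114 group values of 9 library measures and 10 genes were examined for a library apart from the other 4 (Dixon's test at 95%), and 24 were found; chance alone gives about 1 in 20. Of these, 13 were in D3 replicate 3 or D12 replicate 4. In D3 replicate 3, the mean log2(CPM + 0.5) was -0.31 for the mammillary, 1.08 for the lateral and tuberal and 3.73 for the preoptic markers, and levels were 230 CPM for Cyp51, 3.25 CPM for Cyp19a1, 48.9 CPM for Esr1 and 14.8 CPM for Gnrh1. In D12 replicate 4, the marker values were -0.23, 0.85 and 4.35, and levels were 5.10 CPM for Cyp19a1, 16.9 CPM for Esr1 and 12.3 CPM for Gnrh1. The cause was not tested.

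The ribosomal protein share of 2.64% set D6 replicate 1 apart from its group (1.04% to 1.33% in the others), as did its choroid plexus markers at 3.56. The habenular markers set apart K6 replicate 4 (3.62) and K12 replicate 4 (3.82), and the choroid plexus markers K6 replicate 4 (4.04) and K3 replicate 3 (1.99). Single genes were apart in K3 replicate 4 (Esr2, 0.418 CPM), K12 replicate 2 (Esr2, 0.636 CPM), K3 replicate 5 (Avp, 251 CPM, and Mkrn3, 2.58 CPM) and K12 replicate 1 (Mkrn3, 1.38 CPM).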

How the results depend on the processing

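Of the fits on KTZ against DES in the MBH, 2 called a gene. DESeq2 called 1, Ttr (log2 fold change -4.48, adjusted p = 0.022), which was at most at 390 CPM in KTZ and reached 1846 CPM in D12 replicate 4, and 0 without D3 replicate 3 and D12 replicate 4. Without the K3 group, edgeR called 1, Tceal6 (-0.26, adjusted p = 0.0439), which was at 45.9 to 58.9 CPM in KTZ and 52.1 to 65.5 CPM in DES. The count was 0 with RLE size factors, without a filter, with a floor of 1 on the mean log2 CPM, with 6 group means, without each other dose group, with vehicle libraries in the fit, with the range of the rat numbers as a covariate and within each range, and without any single library (30 fits, count 0 to 0, smallest adjusted p-values from 0.161 to 1). With the replicate block it was also 0, and the numbers do not pair these libraries. Chosen after seeing the data, fits without the 4 libraries rich in ribosomal protein reads and without those and the 2 DES libraries (24 libraries, 721 genes at an unadjusted p-value under 0.05) called 0. The pseudo-F lay between 0.675 and 1.41 with 1 library left out, and at 0.93 over all filtered genes, 1.07 on log2 CPM and 0.868 without 6 libraries. Among doses, DESeq2 called 161 genes for KTZ and 2 for DES, and leaving out 1 library gave 0 to 1 in either chemical (1, Crabp1, without K12 replicate 4, and 1, LOC680121, without D6 replicate 1). In the POA, the count of 1306 was 1019 (without D6 replicate 5) to 1687 (without K3 replicate 3) with 1 library left out and 1536 with DESeq2. With alternatives chosen after seeing the data, it was 1302 with RLE size factors, 1431 with the rat number range, 1254 without K3, 390 without K6, 564 without K12, 406 without D3, 407 without D6 and 2142 without D12, so that the number of POA calls depends on which dose groups enter. Named genes were refitted under 2391 combinations of gene and alternative, of which the calls of Ttr and Tceal6 above were the only ones. Npw and Cyp17a1 did not pass the filter on low counts, and at their depth a difference was not detectable.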
